A study of Mus musculus with 4 samples.

Results

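Oligodendrocyte precursor cells (OPCs) of the posterior mouse hindbrain were described from the nuclei that the authors kept after quality control and annotated exactly as "OPC". There were 784 such nuclei among 39461 kept nuclei of 14 annotated cell types, or 1.99% of them. They came from 4 single-nucleus RNA-seq libraries, with 202 and 169 nuclei in control replicates 1 and 2 and 214 and 199 in AgRP-Gq;POMC-Gi replicates 1 and 2. Values below that are given as a run of 4 follow this order, and each is a level in CPM, the unique molecular identifiers (UMIs) of a gene scaled to a total of 1000000 UMIs over all OPC nuclei of that library.

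The dissected tissue held the area postrema (AP) and the nucleus tractus solitarius (NTS), which receive signals about feeding and metabolism. AgRP-Gq;POMC-Gi mice carried AgRP-IRES-Cre+/-, hM3DGqfl/-, POMC-Dre+/- and hM4DGifl/-. In these mice AgRP neurons express the activating receptor hM3DGq after Cre recombination, and POMC neurons express the inhibiting receptor hM4DGi after Dre recombination. The control libraries are labelled WT. By the methods of the study, controls lacked both recombinases but still carried the receptor alleles, which stay silent without recombination. Every mouse received clozapine-N-oxide (CNO), the ligand of both receptors, at 3 mg per kg intraperitoneally and was killed 1 h later without access to food. Mice were 12 to 20 weeks old and of both sexes. Material of 1 condition was pooled from a stated 2 mice per group, and no label ties a library to an animal. The comparison asks how OPCs of this region differ 1 h after activation of the AgRP and inhibition of the POMC population, and its p-values measure only the spread between libraries. Every library came from mice given CNO, so the 1 h of receptor activation cannot be told apart from the genotype itself.

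OPCs are the dividing glial progenitors of the adult brain. They respond to platelet-derived growth factor through the receptor PDGFRα, carry the proteoglycan NG2, receive synapses from neurons, and give rise to myelinating oligodendrocytes through a short committed stage. They are spread through grey and white matter, including the dorsal vagal complex studied here.

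The OPC sums held between 670945 and 968245 UMIs per library and 3168318 in all. The median OPC nucleus had 4662.5, 3615, 3170 and 3736 UMIs, and the median mitochondrial percentage was 0.218, 0.254, 0.138 and 0.189. Both controls were therefore richer in mitochondrial reads than both AgRP-Gq;POMC-Gi libraries. Among kept nuclei, 336 shared a barcode with a nucleus of another library, including 4 OPC nuclei, and no barcode was shared between OPC nuclei. *Xist*, the RNA of the inactive X chromosome, read 725, 614, 1306 and 46.1 CPM in OPCs, so AgRP-Gq;POMC-Gi replicate 2 held far less female RNA than the others. *Ttr*, a choroid plexus gene, read 3.10, 2426, 17.9 and 1664 CPM, high in both libraries numbered 2, which also held 436 and 329 choroid plexus nuclei against 2 and 6 in the libraries numbered 1. AgRP-Gq;POMC-Gi replicate 1 stood apart in *Malat1*, a nuclear long noncoding RNA, at 85413 CPM against 51247, 52870 and 59641 CPM. OPC nuclei formed a single cluster, so no subclusters were compared.

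The defining markers are given as a description of the label, since the annotation was built from the same transcripts. *Pdgfra* (ENSMUSG00000029231, chromosome 5, 75152292 to 75198215, GRCm38), the receptor for the main OPC mitogen, read 902, 1063, 1025 and 956 CPM. The 4 libraries were close and the groups overlapped. A *Pdgfra* UMI was found in 92.1% of OPC nuclei, at a median depth of 3728 UMIs, against 0.488% of oligodendrocytes (median 2460 UMIs) and 1.04% of neurons (median 8704 UMIs). With every nucleus thinned to 2000 UMIs the share was 81.6% in OPCs and 0.342% in oligodendrocytes. The next highest levels of *Pdgfra* were in fibroblasts, at 510 ± 323 CPM (SD, n = 4 libraries; 44.3% of nuclei), the intermediate nuclei, at 54.7 CPM (13.8%), and choroid plexus, at 51.4 CPM (28.2%). *Cspg4* (chromosome 9, 56865033 to 56899870), which encodes NG2, read 276, 300, 358 and 278 CPM, with overlapping groups. Its level was close to that of mural cells, at 378 ± 86.4 CPM, and far above the 13.5 CPM of oligodendrocytes. *Olig2*, the transcription factor that specifies the lineage, was between 134 and 141 CPM in 3 libraries and at 337 CPM in AgRP-Gq;POMC-Gi replicate 1, which alone set the group difference, and that difference did not pass (edgeR adjusted p = 0.479). Of the 784 nuclei, 233 held UMIs of all 3 markers, 362 of any 2 and 167 of 1, and 22 nuclei (2.81%) held none.

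**Figure D1:**
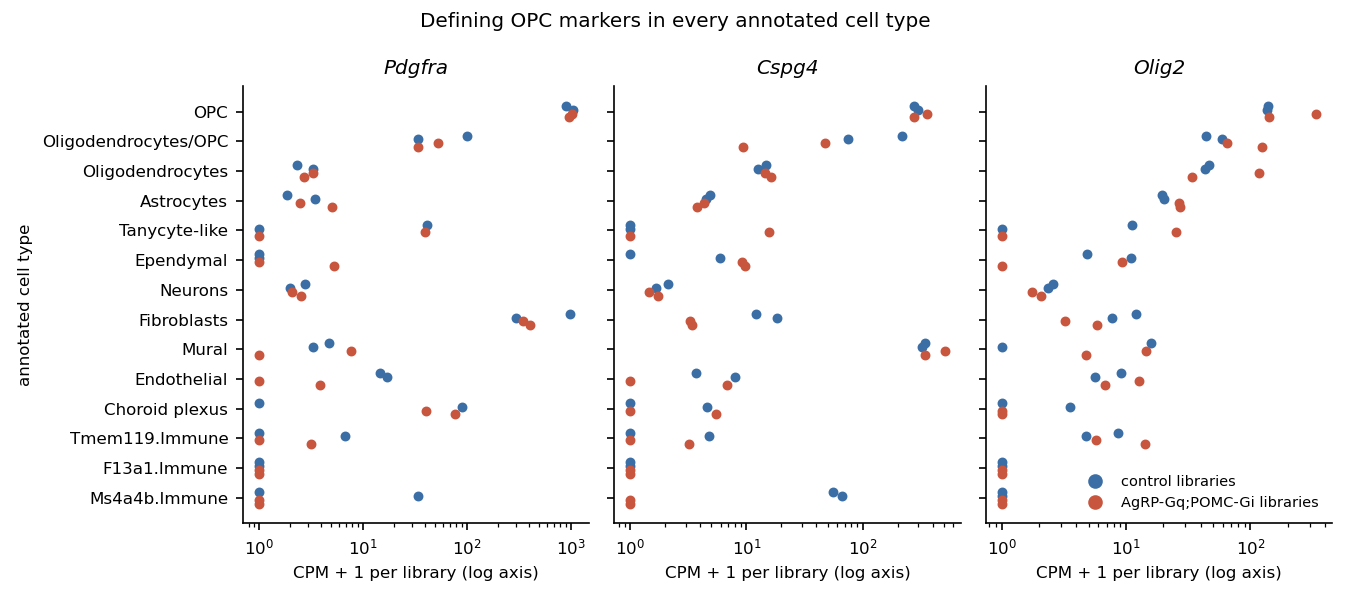
Levels of *Pdgfra*, *Cspg4* and *Olig2* (CPM + 1, log axis) in each annotated cell type, 1 point per library, controls in blue and AgRP-Gq;POMC-Gi in red. In OPCs all 3 genes lie above 100 CPM in every library; fibroblasts share *Pdgfra* (510 CPM on average) and mural cells share *Cspg4* (378 CPM).

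Genes that set OPCs apart from every other annotated type were ranked, as a description, by the ratio of the mean OPC level to the highest mean level in any other type. All 20 leading genes were at least 4.08 times higher in OPCs. They included *Lhfpl3*, at 5909, 5747, 6613 and 6081 CPM and in 98.9% of OPC nuclei against 4.75% of oligodendrocytes. *Myt1*, a zinc finger factor of the lineage, read 349, 319, 441 and 354 CPM, a level 6.88 times that of the next type, the oligodendrocyte-to-OPC intermediate nuclei. *Cspg5*, a chondroitin sulfate proteoglycan, was 6.31 times, and the potassium channel gene *Kcnh8* 6.02 times, above the next type. The other leading protein-coding genes were *Tmem255b*, *Ptgfrn*, *Tox3*, *Rlbp1*, *Xylt1*, *Megf11*, *Cacng4*, *Mmp16*, *Snx22*, *Slc35f1*, *Igsf21* and *Adarb2*. *Cacng4* encodes an auxiliary subunit of AMPA receptors and *Xylt1* the enzyme that starts glycosaminoglycan chains on proteoglycans. The highest ratio, 8.61, belonged to the long noncoding RNA *Gm38505*, at 1169 ± 159 CPM. *Gm2164*, *Gm42948* and *Gm47591* also ranked among the 20, and since they are annotated antisense to or within other genes and the strand setting of the counting is not given in the sources used here, their reads cannot be told apart from those of their partners.

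Along the lineage, OPCs sat before the committed stage. The authors annotated 123 nuclei between OPCs and oligodendrocytes (16, 36, 52 and 19 per library). *Bmp4* and *Enpp6*, genes of newly committed cells, were at 0.861 ± 1.03 and 2.80 ± 1.00 CPM in OPCs and at 205 ± 23.6 and 515 ± 434 CPM in the intermediate nuclei (SD, n = 4 libraries). *Bcas1*, a marker of early myelinating cells, averaged 475 ± 67.6 CPM in OPCs and 2423 ± 1288 CPM in the intermediate nuclei. *Fyn*, a kinase of process outgrowth, averaged 263 ± 22.1 CPM in OPCs and 2096 ± 1071 CPM in the intermediate nuclei, and *9630013A20Rik*, a noncoding RNA of the same stage, 87.8 ± 12.8 and 2196 ± 1820 CPM. All 14 genes of a list for committed precursors were higher in at least 1 other type than in OPCs, which need not be the intermediate nuclei. The order of stages is given as a description, since the annotation was built from the same transcripts. *Gpr17*, the receptor that marks the transition, was already at 135 ± 14.8 CPM in OPCs, in 36.4% of nuclei, against 297 ± 185 CPM in the intermediate nuclei and 1.13 CPM (0.297% of nuclei) in oligodendrocytes.

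Genes of the precursor state were lower from different stages on. *Pdgfra* averaged 54.7 CPM in the intermediate nuclei against 986 ± 71.6 CPM in OPCs, and *Lhfpl3* 901 ± 403 against 6087 ± 376 CPM. *Tnr*, which encodes the matrix protein tenascin-R, was still at 5003 ± 2761 CPM in the intermediate nuclei against 4076 ± 512 CPM in OPCs, and at 7.18 CPM in oligodendrocytes. *Sox6*, a factor that holds back terminal differentiation, likewise stood at 1528 ± 142 CPM in OPCs, 1426 ± 886 CPM in the intermediate nuclei and 6.62 CPM in oligodendrocytes. The levels of *Tnr* and *Sox6* in OPCs and intermediate nuclei differed by less than the spread between libraries.

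**Figure D2:**
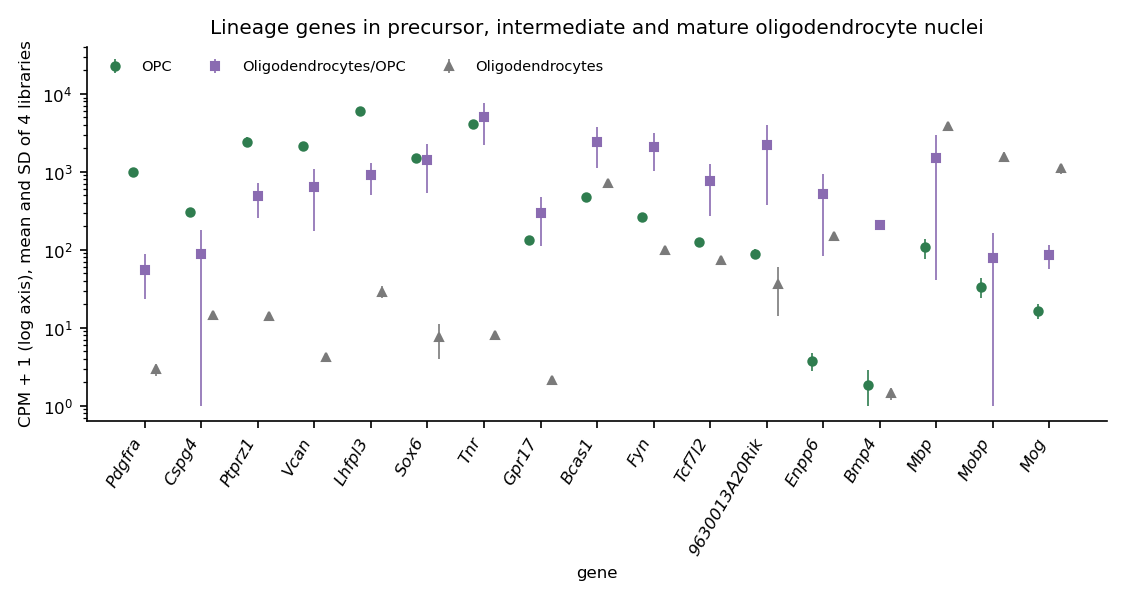
Mean level (CPM + 1, log axis) with SD over 4 libraries of 17 lineage genes in OPCs, in the intermediate nuclei (labelled Oligodendrocytes/OPC) and in oligodendrocytes; a lower bar that would pass 0 CPM ends there. *Enpp6* and *Bmp4* are under 3 CPM in OPCs and above 200 CPM in the intermediate nuclei, while *Tnr* and *Sox6* are at like levels in both.

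Lineage transcription factors separated the same stages. *Sox10*, needed throughout the lineage, was at 373 ± 39.7 CPM in OPCs and 273 ± 73.0 CPM in oligodendrocytes. *Myrf*, which switches on myelin genes, was at 7.16 ± 3.42 CPM in OPCs and 197 ± 11 CPM in oligodendrocytes. *Tcf7l2*, a factor of differentiation onset, was at 125 ± 9.55 CPM in OPCs and 766 ± 493 CPM in the intermediate nuclei.

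Among mitogen receptors and ligands, 15 of 21 listed genes had a UMI in at least 5% of OPC nuclei. *Erbb4*, a neuregulin receptor, read 3208 ± 194 CPM, and *Erbb3* 36.6 ± 8.75 CPM. *Nrg3*, a neuregulin ligand, was at 2168 ± 87.3 CPM in OPCs against 30.5 CPM in oligodendrocytes and 5128 CPM in neurons. *Fgfr2* was at 679 ± 62.4 CPM, and *Egfr*, *Pdgfrb*, *Pdgfb*, *Fgf2*, *Igf1* and *Igf2* stayed under the 5% minimum. *Pdgfa*, the ligand of PDGFRα, was at 16.5, 16.4, 16.5 and 17.4 CPM in OPCs themselves and at 55.6 CPM in oligodendrocytes. OPCs were also rich in matrix genes that oligodendrocytes lacked: *Vcan* (versican) averaged 2125 ± 132 CPM in OPCs against 3.27 CPM, and *Ptprz1*, a receptor phosphatase with a proteoglycan form, 2431 ± 370 against 13 CPM in oligodendrocytes.

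OPCs carried a broad set of transmitter receptor and channel transcripts, and 10 of 24 ionotropic and metabotropic glutamate receptor genes were higher in OPCs than in any other type, neurons included. *Grm5* (mGluR5) averaged 1870 ± 62.6 CPM in OPCs, 1317 ± 78.7 CPM in neurons and 15.1 ± 4.06 CPM in oligodendrocytes. *Gria4*, an AMPA receptor subunit, averaged 2352 ± 214 CPM against 1391 ± 64.7 CPM in neurons, and *Gria3* 556 ± 27.5 against 462 ± 20.3 CPM. *Grin3a*, an NMDA receptor subunit, reached 574 ± 53.7 CPM against 251 ± 22.0 CPM in neurons. The opposite held for *Grin1*, the obligatory NMDA subunit, at 49.0 ± 7.90 CPM in OPCs and 339 ± 22.4 CPM in neurons, and for *Gria1*, at 46.0 ± 21.8 against 394 ± 19.4 CPM. All 14 listed GABA-A subunits were higher in another type, yet *Gabrg3* was at 647 ± 6.88 CPM in OPCs against 5.18 CPM in oligodendrocytes and 800 ± 24.0 CPM in neurons. Of 22 channel genes, 21 passed the 5% minimum. *Kcnd2*, an A-type potassium channel, averaged 4373 ± 146 CPM against 2049 ± 58.5 CPM in neurons and 24.4 ± 1.02 CPM in oligodendrocytes. *Kcnd3* averaged 334 ± 38.5 CPM against 128 ± 3.99 CPM in neurons. The sodium channel gene *Scn1a* was at 220 ± 11.3 CPM, below the 473 ± 18.7 CPM of neurons and above the 25.3 ± 4.62 CPM of oligodendrocytes. These levels are shares of each type's own UMIs and are given as a description, since the annotation was built from the same transcripts.

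**Figure D3:**
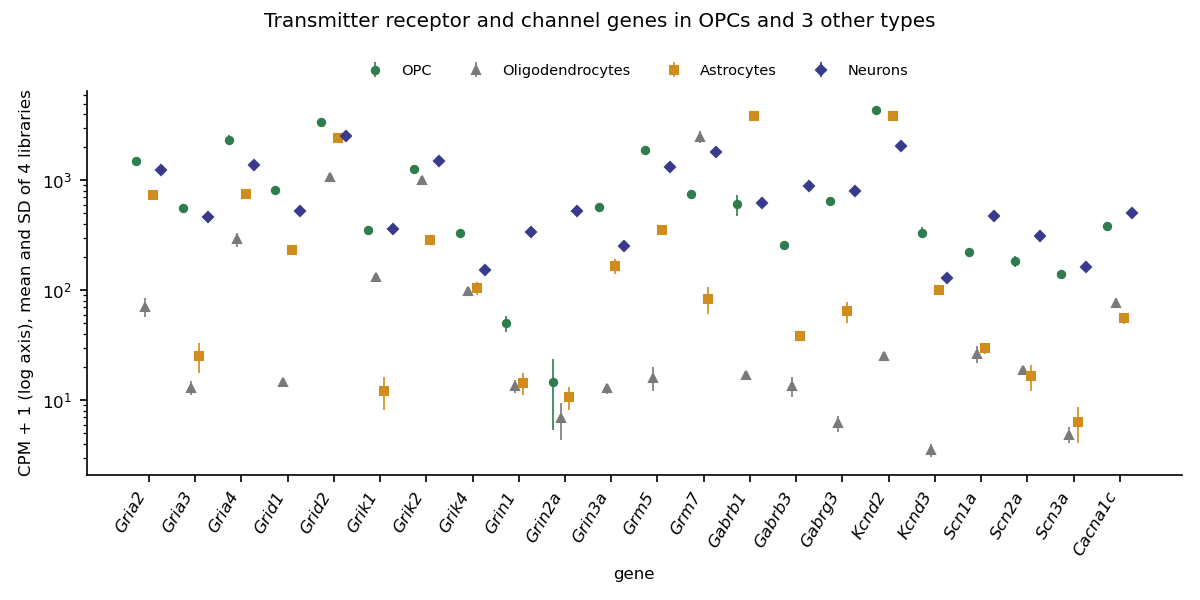
Mean level (CPM + 1, log axis) with SD over 4 libraries of 22 glutamate receptor, GABA-A receptor and channel genes in OPCs, oligodendrocytes, astrocytes and neurons. OPCs lie above neurons for *Gria4*, *Grin3a*, *Grm5*, *Kcnd2* and *Kcnd3*, below them for *Grin1* and *Scn1a*, and 1 or more orders of magnitude above oligodendrocytes for *Grm5* and *Kcnd2*.

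Receptors through which feeding peptides act were near 0 in OPCs. *Mc4r*, the melanocortin receptor that AgRP blocks, had 1 UMI among the 784 nuclei (0.128%), *Glp1r* 1, *Lepr* 1, and *Npy1r* was at 1.60 ± 0.626 CPM. *Mc3r*, *Ghsr* and *Oxtr* had no UMI in 784 nuclei, which allows a share of nuclei with a UMI of up to 0.383% and covers counting error only. Of 37 listed feeding, hormone and neuromodulator receptors, 9 passed the 5% minimum. Among these were the nuclear hormone receptors: *Nr3c1*, the glucocorticoid receptor, at 133, 151, 135 and 154 CPM, *Nr3c2*, the mineralocorticoid receptor, at 173 ± 7.74 CPM, and *Thrb*, a thyroid hormone receptor, at 388 ± 18.8 CPM. Neither corticoid receptor separated the groups. *Adra1a*, the α1A-adrenergic receptor, was at 188, 171, 136 and 97.1 CPM, without overlap of the groups, and its log2 difference of -0.59 (SE 0.19) did not pass edgeR's test (adjusted p = 0.482). It was -0.91 (adjusted p = 0.00298) with AgRP-Gq;POMC-Gi replicate 1 left out and -0.30 with replicate 2 of that group left out.

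The share of OPCs among all kept nuclei overlapped between the groups. It was 2.08% (95% exact Clopper-Pearson interval 1.80 to 2.38), 1.68% (1.44 to 1.95), 2.20% (1.92 to 2.51) and 2.00% (1.73 to 2.29), and these intervals cover counting error only. The group means were 1.88% ± 0.280 for controls and 2.10% ± 0.144 for AgRP-Gq;POMC-Gi (SD, n = 2 libraries each; exact two-sided permutation test, p = 0.667). That difference of 0.220 percentage points was 0.418 with control replicate 1 and 0.0222 with control replicate 2 left out. Among nuclei that are not neurons the share was 2.78%, 2.31%, 3.55% and 3.15%, without overlap, a difference of 0.801 percentage points (exact two-sided permutation test, p = 0.333). Within the oligodendrocyte lineage the OPC share was 3.89% and 3.75% in controls and 5.14% and 5.16% in AgRP-Gq;POMC-Gi libraries, with no overlap. The difference of 1.33 percentage points reached p = 0.333 in the exact permutation test, also the smallest p that 2 against 2 libraries allow. Oligodendrocytes themselves numbered 4981, 4300, 3898 and 3637, and neurons made up 25.4%, 27.2%, 38.0% and 36.5% of nuclei, so the denominators of both shares also differed between the groups, and their part in the difference was not tested.

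OPC nuclei with transcripts of late cell cycle genes were rare. Counting nuclei with UMIs of at least 2 of 26 G2/M genes gave 11 of 202, 2 of 169, 7 of 214 and 3 of 199 nuclei, or 5.45%, 1.18%, 3.27% and 1.51%. Control replicate 1 was the highest and the groups overlapped (exact two-sided permutation test, p = 1). At a common depth of 2000 UMIs the share over all libraries was 0.834% of 719 OPC nuclei, beside 0.841% of neurons, which do not divide, and 1.06% of astrocytes, and it is not read as cycling. Oligodendrocytes reached 9.01%, and the listed gene *Anln* averaged 711 CPM there against 10.6 CPM in OPCs. *Mki67*, the proliferation antigen, was at 5.16, 5.96, 5.51 and 4.98 CPM, and none of the 26 genes reached the 5% minimum. The sort had gated nuclei with a 2n DNA content, which would leave out nuclei with replicated DNA.

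Between the groups, OPCs of AgRP-Gq;POMC-Gi mice had less RNA of *Zbtb16*, *Mertk*, *Fkbp5* and *Cd101*. Of these genes, *Cd101* cleared the 5% detection minimum mainly through the controls. *Zbtb16* fell from 515 ± 43.1 CPM in controls to 146 ± 34.5 CPM in AgRP-Gq;POMC-Gi libraries, and *Mertk* from 584 ± 28.9 to 265 ± 24.4 CPM (SD, n = 2 libraries each). No gene rose past the threshold, and the nearest were *Spry4*, *Ccnd1*, *Phlda1*, *Spry2* and *Malat1*. UMIs were summed over OPC nuclei of each library and tested with edgeR's quasi-likelihood test. The test took the 9016 genes that were detected in 5% or more of OPC nuclei, and 4 passed a Benjamini-Hochberg adjusted p of 0.05, all lower (0.0444% of the genes tested; 0 higher). At an unadjusted p under 0.05 there were 571 genes (6.33%), with 307 (3.41%) lower and 264 (2.93%) higher. The groups did not overlap for 1833 genes (20.3%) on the lower side and 1303 (14.5%) on the higher side, the background against which any count of members without overlap stands.

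*Zbtb16* (ENSMUSG00000066687, chromosome 9, 48654297 to 48836222, minus strand) encodes a BTB-domain zinc finger repressor. It read 545, 484, 171 and 122 CPM, from 528, 325, 124 and 98 UMIs, and both AgRP-Gq;POMC-Gi libraries were far below both controls. The log2 difference was -1.77 (SE 0.18, edgeR adjusted p = 1.62e-05). The decrease was spread over nuclei: 84.7% and 76.9% of control OPC nuclei and 40.7% and 36.2% of AgRP-Gq;POMC-Gi OPC nuclei had a *Zbtb16* UMI. Thinned to 2000 UMIs per nucleus, these shares were 60.4%, 58.7%, 32.6% and 22.2%, beside 7.53% of neurons over all libraries.

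*Mertk* (ENSMUSG00000014361, chromosome 2, 128698956 to 128802894, plus strand) encodes a receptor tyrosine kinase for the uptake of dying cells and membranes, best known from microglia and astrocytes. It read 604, 563, 282 and 248 CPM in OPCs, and the lower group lay well clear of the higher. The log2 difference was -1.09 (SE 0.15, edgeR adjusted p = 0.00223). *Mertk* was detected in 82.2%, 77.5%, 54.7% and 54.3% of OPC nuclei, against 0.535% of oligodendrocytes and 82.8% of astrocytes over all libraries. Thinned to 2000 UMIs, the shares in OPCs were 67.2%, 57.4%, 42.8% and 34.1%. The annotated class Tmem119.Immune had the highest *Mertk* level, 2069 CPM, while the microglial marker *Tmem119* had 1 UMI in all OPC nuclei and *F13a1* and *Mrc1* of macrophages had none.

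*Fkbp5* (ENSMUSG00000024222, chromosome 17, 28399094 to 28517527, minus strand) encodes a co-chaperone that lowers the hormone affinity of the glucocorticoid receptor. It read 174, 174, 79.9 and 66.0 CPM, nearly equal in the controls and lower in both other libraries. The log2 difference was -1.21 (SE 0.19, edgeR adjusted p = 0.00596). *Cd101* (ENSMUSG00000086564, chromosome 3, 100993529 to 101029556, minus strand), an immunoglobulin-family surface protein named from leukocytes, rested on few molecules, 49, 33, 10 and 10 UMIs. Its levels were 50.6, 49.2, 13.8 and 12.5 CPM, a log2 difference of -1.88 (SE 0.34, edgeR adjusted p = 0.0319). A *Cd101* UMI was seen in 18.3%, 16.0%, 4.67% and 5.03% of OPC nuclei and in 0.0297% of oligodendrocytes and 1.03% of neurons, so its RNA in OPCs was not a level shared by all types. Over all OPC nuclei the share was 10.7%, so *Cd101* cleared the 5% minimum mainly through the controls, where it is high. Its p-value is therefore given as a value and is not read as support for a decrease. *Ptgfrn*, among the most OPC-restricted genes, lies upstream on the same strand (101040232 to 101110278) and read 251, 216, 201 and 134 CPM. Whether its transcripts gave part of the *Cd101* UMIs was not tested. The next gene, *9330159F19Rik*, read 360, 390, 194 and 227 CPM and did not pass (log2 difference -0.79, SE 0.15, edgeR adjusted p = 0.0584).

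How many genes passed depended on each library. With control replicate 2 left out no gene passed, 262 genes had an unadjusted p under 0.05, and each of the 4 genes had an edgeR adjusted p of 0.998. Leaving out control replicate 1 left *Zbtb16* as the single call, and leaving out AgRP-Gq;POMC-Gi replicate 1 or 2 gave 64 or 105 calls. The size of the differences varied less, from -2.09 to -1.49 for *Zbtb16*, -1.25 to -0.94 for *Mertk*, -1.41 to -1.02 for *Fkbp5* and -2.0 to -1.74 for *Cd101* over these 4 fits. Genes described here as not passing also changed sides in this way. *9330159F19Rik*, *Spry4*, *Ccnd1*, *Spry2* and *Malat1* passed with either AgRP-Gq;POMC-Gi library left out. *Sgk1*, *Adra1a* and *Hes5* passed with AgRP-Gq;POMC-Gi replicate 1 left out, and *Phlda1*, *Olig2*, *Hes1*, *Cspg5*, *Ptprz1* and *Gabrb1* with replicate 2 left out. DESeq2 called *Zbtb16* and *Mertk* only, with adjusted p = 0.0972 for *Fkbp5* and 0.719 for *Cd101*.

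**Figure D4:**
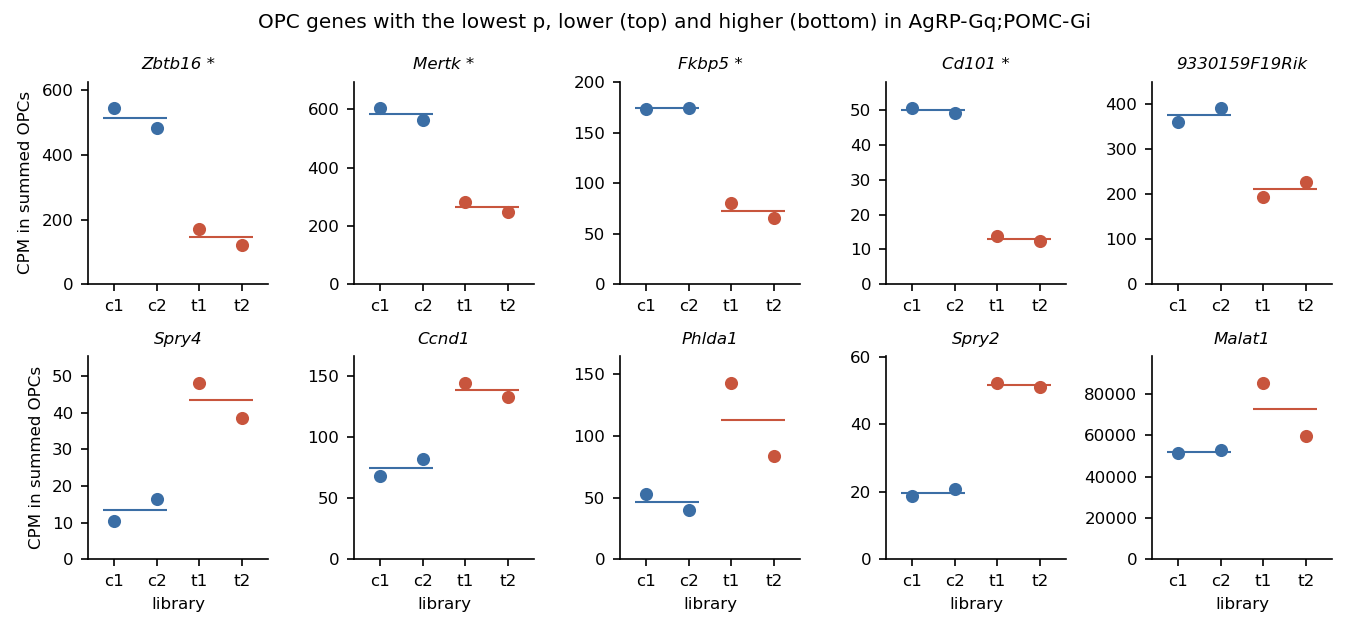
CPM in the summed OPC nuclei of each library for the 5 genes with the lowest p in each direction (c1 and c2, control replicates 1 and 2; t1 and t2, AgRP-Gq;POMC-Gi replicates 1 and 2), with the group mean as a line; each axis starts at 0 and an asterisk marks genes past an adjusted p of 0.05. The 4 marked genes are lower in both AgRP-Gq;POMC-Gi libraries, and *Phlda1* and *Malat1* are higher in replicate 1 (143 and 85413 CPM) than in replicate 2 (83.4 and 59641 CPM) of that group.

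Promoter windows of the genes called lower are shown because these genes moved together and 3 of the 4 stand on a list of glucocorticoid-induced genes. They come from RefSeq on GRCm38.p6 and span 250 bases before to 50 bases after the annotated start, 5′ to 3′ on the gene's strand, and 3 of the 4 genes had an entry, with *Zbtb16* named only. The windows follow RefSeq starts, and the gene bounds above follow GENCODE M21. Capitals mark AGAACA or its complement TGTTCT on the shown strand, the hexamer to which the glucocorticoid receptor's DNA-binding domain is known to attach.
Mertk (chr2:128698665-128698964, plus strand): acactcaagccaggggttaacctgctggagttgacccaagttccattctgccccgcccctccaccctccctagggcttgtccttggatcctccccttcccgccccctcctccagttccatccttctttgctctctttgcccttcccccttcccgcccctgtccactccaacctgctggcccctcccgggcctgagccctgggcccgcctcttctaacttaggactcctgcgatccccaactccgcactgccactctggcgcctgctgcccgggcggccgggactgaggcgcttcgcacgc
Cd101 (chr3:101029504-101029803, minus strand): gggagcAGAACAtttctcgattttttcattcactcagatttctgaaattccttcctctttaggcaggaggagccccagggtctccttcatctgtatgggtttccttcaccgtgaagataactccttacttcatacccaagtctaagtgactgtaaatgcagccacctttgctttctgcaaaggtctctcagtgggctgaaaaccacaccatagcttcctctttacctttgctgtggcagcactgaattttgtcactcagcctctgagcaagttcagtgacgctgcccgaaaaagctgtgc
Fkbp5 (chr17:28486100-28486399, minus strand): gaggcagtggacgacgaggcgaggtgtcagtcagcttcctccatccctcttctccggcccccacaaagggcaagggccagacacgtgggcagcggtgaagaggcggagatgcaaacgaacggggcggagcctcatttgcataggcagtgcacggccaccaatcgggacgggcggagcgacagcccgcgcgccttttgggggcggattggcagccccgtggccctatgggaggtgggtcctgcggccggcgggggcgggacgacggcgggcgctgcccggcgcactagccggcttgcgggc
The hexamer was found once, at position 7 of the *Cd101* window, and not in the *Mertk* and *Fkbp5* windows. It was present on either strand in 6233 of 32851 windows of the same length (19.0%), and no match says only that these letters are not in the window. The *Fkbp5* and *Mertk* windows were rich in G and C, at 70.7% and 66.0% against a median of 52.7% over all windows, and the *Cd101* window held 47.0%.

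Of 20 listed glucocorticoid-induced genes, 13 passed the 5% minimum in OPCs. Of these, 3 were called lower (*Zbtb16*, *Mertk* and *Fkbp5*) and none higher. They are among the 4 called lower of all 9016 genes tested (0.0444%), beside 0 called higher. The groups did not overlap for 7 of the 13, all lower, beside 20.3% of all genes tested that were lower without overlap. A difference below 0 was found for 12 of the 13, beside 4434 of all 9016 genes tested. The 13 members had a median log2 difference of -0.58, against -0.41 over the 10 tested members other than the called genes and 0.01 over all genes tested. *Tsc22d3*, whose own difference was -0.58, and *Nfkbia* (20.7, 17.9, 8.26 and 11.2 CPM) cleared the 5% minimum only through the controls. The medians and the counts below 0 therefore rest partly on that filter and are not read as support for a decrease. The list's sum was 2110, 1994, 1132 and 898 CPM, with both AgRP-Gq;POMC-Gi libraries lower. Of this sum, the 3 called genes made up 1323, 1222, 533 and 436 CPM, and the other 17 members 787, 772, 599 and 462 CPM. All 20 members were chosen with earlier results of these data known, so neither part is independent support for a decrease of the list. *Sgk1*, a kinase induced by corticoids, read 303, 292, 196 and 152 CPM without passing (log2 difference -0.73, SE 0.17, edgeR adjusted p = 0.132). With edgeR it passed without TMM factors (adjusted p = 0.0319), with no filter beyond 1 UMI (0.0162) and in nuclei with under 2 myelin UMIs (0.0444). It did not pass under the other settings that kept all libraries, among them the replicate block (edgeR adjusted p = 0.101). *Klf9* read 137, 95.4, 97.8 and 72.2 CPM, *Tsc22d3* 16.5, 13.4, 11 and 8.72 CPM, and the adjusted p was 0.805 and 0.927. *Per1* was the member with a difference above 0, at 16.5, 16.4, 27.5 and 9.96 CPM.

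The same genes were read in the other large glial classes, whose libraries are the same as those of OPCs. *Zbtb16* had a log2 difference of -1.17 (SE 0.21) in oligodendrocytes and -1.04 (SE 0.12) in astrocytes, where it was called (edgeR adjusted p = 0.00603). The test of the difference between types did not pass for *Zbtb16* against either (edgeR adjusted p = 0.236 and 0.111). *Fkbp5* fell less in OPCs than in astrocytes: from 226 ± 68.4 to 26.7 ± 3.13 CPM in astrocytes, a log2 difference of -3.04 (SE 0.21), and by 1.21 in OPCs. That difference between types was 1.82 (SE 0.25, edgeR adjusted p = 3.50e-05). Against oligodendrocytes, where *Fkbp5* had a log2 difference of -1.78 (SE 0.20), the difference between types did not pass (edgeR adjusted p = 0.545). *Mertk* had -0.64 (SE 0.18) in astrocytes, and the interaction with OPCs did not pass (edgeR adjusted p = 0.507).

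**Figure D5:**
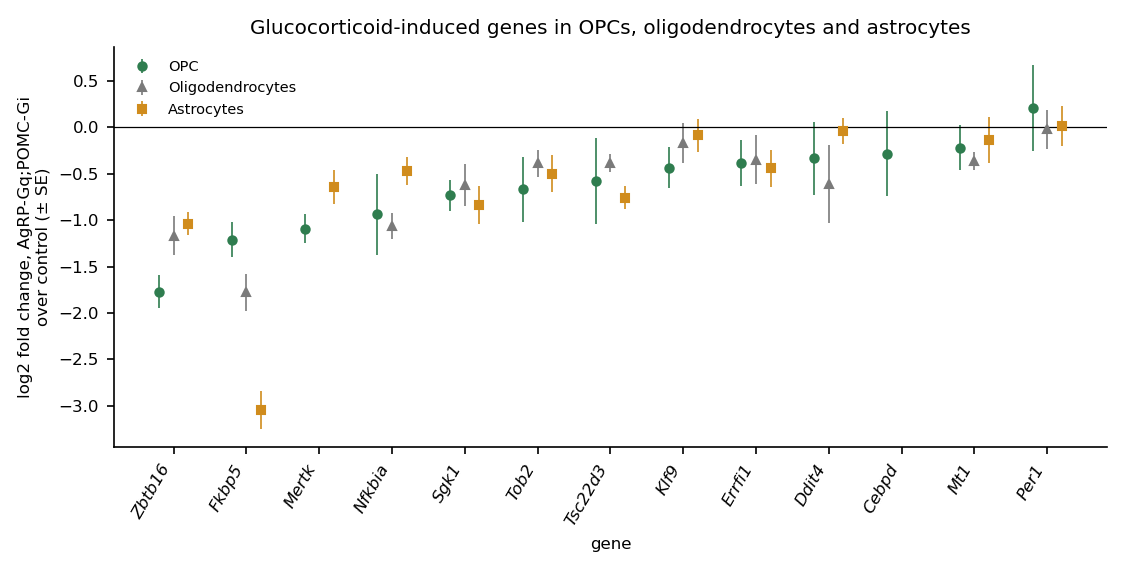
Log2 difference between AgRP-Gq;POMC-Gi and control (± SE, n = 2 libraries each) for the 13 glucocorticoid-induced genes tested in OPCs, with the same genes in oligodendrocytes and astrocytes where tested. OPC values lie below 0 for 12 of 13 genes, and *Fkbp5* is lower in astrocytes (-3.04) than in OPCs (-1.21).

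On the higher side none of the 5 leading genes passed. All 5 passed with no filter beyond 1 UMI, and *Malat1* also without TMM factors (edgeR adjusted p = 0.00705) and in nuclei with under 2 myelin UMIs (0.00389). *Spry4* and *Spry2*, feedback inhibitors of receptor tyrosine kinases, read 10.3, 16.4, 48.2 and 38.6 CPM and 18.6, 20.9, 52.3 and 51.1 CPM. Their log2 differences were 1.78 (SE 0.36) and 1.44 (SE 0.30), with edgeR adjusted p of 0.0717 and 0.0851. Both rested on few molecules, at most 35 UMIs of *Spry4* and 41 of *Spry2* in a library. *Ccnd1*, cyclin D1, read 68.2, 82.0, 145 and 133 CPM without overlap (log2 difference 0.95, SE 0.19, edgeR adjusted p = 0.0717). *Phlda1* read 52.7, 40.2, 143 and 83.4 CPM, and *Malat1* differed by 0.54 (SE 0.12, edgeR adjusted p = 0.0902). With AgRP-Gq;POMC-Gi replicate 1 left out the log2 difference was 0.80 for *Phlda1* against 1.30 with it, and 0.18 for *Malat1*, so much of both came from that library. *Phlda1* passed with the replicate number as a block (edgeR adjusted p = 0.0128).

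Immediate early genes, induced within minutes of stimulation, were read 1 h after CNO. Of the 10 such genes followed by the study, 4 passed the 5% minimum and none was called, and *Fos* read 2.07, 0, 4.13 and 2.49 CPM. *Jun*, another of the 10, had a log2 difference of 0.74 (edgeR adjusted p = 0.667). Its difference was 0.19 with AgRP-Gq;POMC-Gi replicate 1 left out and 1.18 with replicate 2 of that group left out. Of 24 further immediate early genes, 5 passed the minimum and none was called. *Egr1*, an early growth response factor, had 2, 0, 66 and 4 UMIs, and 45 of 214 OPC nuclei of AgRP-Gq;POMC-Gi replicate 1 carried it (21%) against 0.990%, 0 and 2.01% in the others. The high value was that of a single library, no fold is given against controls at or under 3 UMIs, and the test did not pass (edgeR adjusted p = 0.0902). *Egr1* cleared the 5% minimum, at 6.51% of all OPC nuclei, only through that library, so its p-values are given as values and nothing is read from them: with edgeR the adjusted p was 0.000122 with the replicate number as a block and 0.0469 in nuclei with under 2 myelin UMIs. In astrocytes *Egr1* was also highest in AgRP-Gq;POMC-Gi replicate 1, at 25.4 CPM against 1.51, 2.01 and 5.07 CPM.

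No member of the identity, lineage or differentiation lists was called. Counts without overlap stand beside 14.5% higher and 20.3% lower over all genes tested. Of 20 OPC identity genes, all tested, 9 were higher and 2 lower without overlap, and their median log2 difference was 0.17. *Ptprz1* read 2195, 2085, 2902 and 2544 CPM (log2 difference 0.40, SE 0.13, edgeR adjusted p = 0.482), and *Tnr* 4493, 4486, 3886 and 3438 CPM. *Cspg5* read 526, 517, 837 and 713 CPM, a log2 difference of 0.62 (SE 0.15, edgeR adjusted p = 0.181). Of 23 lineage transcription factors, 19 were tested, 11 were higher and 3 lower without overlap, and the median was 0.21. *Tox3*, among the most OPC-restricted genes, read 252, 231, 125 and 149 CPM and did not pass (log2 difference -0.77, SE 0.16, edgeR adjusted p = 0.0717). The 14 committed-precursor genes, 11 of them tested, had a median of 0.00, with 2 higher and 3 lower without overlap.

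Genes that hold back differentiation were read as a further list of 22, of which 17 were tested. None was called, 6 were higher and 2 lower without overlap (14.5% and 20.3% of all genes tested), and the median was 0.18. *Hes1*, a Notch effector, read 8.26, 10.4, 31.7 and 22.4 CPM (log2 difference 1.58, SE 0.43, edgeR adjusted p = 0.326), with AgRP-Gq;POMC-Gi libraries above both controls. In OPCs it cleared the detection minimum only through the AgRP-Gq;POMC-Gi libraries, where it is high. Its p-values in OPCs are therefore given as values and are not read as support for an increase. The gene is counted as higher without overlap in this list and among the lineage transcription factors, so both counts rest partly on that filter. *Hes1* was called higher in astrocytes, at 54.9 ± 1.05 against 109 ± 18.2 CPM (edgeR adjusted p = 0.0197), and the difference between types did not pass (adjusted p = 0.924). *Hes5* read 17.6, 10.4, 17.9 and 46.1 CPM, high in AgRP-Gq;POMC-Gi replicate 2 alone. Among mitogen receptors and ligands, 15 tested, 1 was higher and 4 lower without overlap, with a median of -0.05.

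Receptors, channels and matrix genes showed no called member either. The 20 tested glutamate receptor genes had a median log2 difference of 0.04, with 6 higher and 5 lower without overlap (14.5% and 20.3% of all genes tested). For the 9 tested GABA-A subunits the median was -0.06, and *Gabrb1* read 716, 696, 438 and 565 CPM (log2 difference -0.45, SE 0.15, edgeR adjusted p = 0.482). The 21 tested channel genes had a median of -0.07, with 1 higher and 6 lower without overlap. For the 12 tested matrix genes the median was 0.14, with 4 higher and 2 lower.

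Marker genes of other cell types were also summed in OPC nuclei, and these sums do not measure RNA from other cells alone. Of the neuron markers, *Gad1* averaged 62.1 CPM in OPCs against 50.6 CPM in neurons, and *Rbfox1* 2192 against 4403 CPM. *Rbfox3* and *Syt1* were far lower in OPCs, at 8.58 against 256 CPM and 68.6 against 1348 CPM. Of the myelin genes, *Gjc3* averaged 783 CPM in OPCs against 964 CPM in oligodendrocytes. The 18 myelin genes summed to 1764, 1872, 1340 and 1595 CPM, lower in both AgRP-Gq;POMC-Gi libraries. Of 11 tested, 7 were lower without overlap (20.3% of all genes tested), with a median of -0.39 and none called. *Mbp*, a structural myelin protein, read 117, 148, 84.0 and 80.9 CPM in OPCs, an average of 107 ± 31.3 CPM, near the 102 CPM of astrocytes and far below the 3863 ± 246 CPM of oligodendrocytes. OPC nuclei with under 2 UMIs over 5 myelin genes numbered 96, 85, 156 and 119. Among these nuclei the log2 difference was -1.73 for *Zbtb16*, -1.01 for *Mertk*, -1.13 for *Fkbp5* and -1.82 for *Cd101*, close to the values over all OPC nuclei, and the edgeR adjusted p of *Fkbp5* and *Cd101* was 0.0622 and 0.152. Summed markers were 3523, 3300, 3161 and 3372 CPM for neurons (10 genes), 766, 848, 773 and 848 CPM for astrocytes (8 genes) and 139, 148, 182 and 151 CPM for microglia and macrophages (9 genes). The 6 endothelial markers summed to 81.6, 19.4, 17.9 and 18.7 CPM, high in control replicate 1, and the 8 mural and fibroblast markers to at most 29.8 CPM. The part of the mitochondrial share, which also moved with the groups, was not tested.

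Group differences in OPCs were compared with those in oligodendrocytes in a single fit of 8 sums with library and cell type as terms. Of 9487 genes, 8 had an interaction past an adjusted p of 0.05 (0.0843%), and oligodendrocytes alone had no called gene of 6646. *Hunk*, a serine/threonine kinase gene, read 344, 338, 222 and 192 CPM in OPCs and 15.0, 18.0, 27.6 and 23.0 CPM in oligodendrocytes. The interaction was -1.34 (SE 0.18, edgeR adjusted p = 0.00039). *Hunk* entered that fit through its OPC level and was under the minimum for a test in oligodendrocytes, where its UMIs were found in 4.98% of nuclei. At 2000 UMIs that share was 3.75%, beside 4.33% of neurons, so the oligodendrocyte values are at a level shared by other types and no change is read from them. *Rhoj*, *Enah*, *Pcdh11x* and *Sgk3* differed the other way: OPC means were 134 and 145, 376 and 377, 880 and 1071, and 66.7 and 70.4 CPM in controls and AgRP-Gq;POMC-Gi, while oligodendrocyte means went from 220 to 102, 398 to 197, 336 to 217 and 525 to 226 CPM. *Enah* regulates actin and *Sgk3* is a kinase related to *Sgk1*. With control replicate 1 left out the interactions of *Enah*, *Pcdh11x* and *Sgk3* did not pass, while that of *Rhoj* passed under each of the 6 alternatives run.

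Against astrocytes, 4 of 9935 genes passed (0.0403%), beside 31 genes lower (0.366%) and 22 higher (0.26%) of 8462 in astrocytes alone. *Hunk* was again the gene with the lowest p, with 9.31, 13.3, 21.8 and 27.4 CPM in astrocytes and an interaction of -1.87 (SE 0.25, edgeR adjusted p = 2.71e-05). In astrocytes alone *Hunk* was called higher (log2 difference 1.18, SE 0.21, edgeR adjusted p = 0.0305), at a share of 3.53% of astrocyte nuclei at 2000 UMIs beside 4.33% of neurons. In OPCs alone *Hunk* had a log2 difference of -0.68 (SE 0.16) and was not called. *4930545L23Rik* stayed at 94.0, 106, 99.2 and 101 CPM in OPCs and read 448, 511, 195 and 167 CPM in astrocytes. *Ntng1*, a netrin-G adhesion gene, read 28.9, 28.3, 8.26 and 17.4 CPM in OPCs and 59.1, 44.9, 80.0 and 109 CPM in astrocytes. The fifth gene by p, *Fmn1*, did not pass (edgeR adjusted p = 0.0569). The count depended on single libraries: with AgRP-Gq;POMC-Gi replicate 2 left out none passed, and with replicate 1 of that group left out 37 did.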

How the data were processed

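Nuclei of the dissected hindbrain were sorted on DNA stain and sequenced on a droplet platform. Per the submitters' processing notes, Cell Ranger 7.0.0, Seurat 4.3.0 and GRCm38 (mm10) were used. The deposited matrices hold UMI counts per gene and barcode, made by the authors without normalization. A deposited table gives for each barcode the UMIs, the percent of mitochondrial UMIs, the authors' quality call (at least 800 UMIs, 500 genes and at most 10% mitochondrial; doublets removed) and their annotation. Its columns of an immediate early gene score and class hold the authors' own result and were not used.

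Counts of 784 OPC nuclei (823 to 12244 UMIs each) were summed per library. Genes detected in 5% or more of OPC nuclei were tested with edgeR 4.0.16 (R 4.3.3): TMM factors, glmQLFit and glmQLFTest, group as the only term, Benjamini-Hochberg adjustment over all tested genes. Interactions used 8 sums with library and cell type as terms, and each was taken as the OPC difference minus that of the other type. Shares were compared with the exact two-sided permutation test (scipy 1.17.1). The procedure was tested on simulated data with 1 common dispersion per comparison. In the OPC comparison, 55 of 100 changes of log2 size 1 and 91 of 100 of size 2 were called, with 11 false calls. For the interactions, 25 and 28 of 100 changes of size 1 were called against oligodendrocytes and astrocytes, with 3 and 8 false calls. At size 2 the numbers were 86 and 88. A gene that did not pass may therefore still differ. Named genes were Pdgfra, Cspg4, Olig2, list members, the 12 called genes with the lowest p per direction (where under 5 were called, the 5 with the lowest p), the 20 highest ratios over other types among genes of at least 50 CPM in every library, and the 5 lowest p per interaction. Gene lists and members were chosen with earlier results of these data known. The study's own mixed model over single nuclei was not run. Alternatives were DESeq2 1.42.0, no TMM, other filters, a replicate block, nuclei subsets, Holm adjustment and leaving out each library.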

Additional observations from a re-analysis of the deposited data

Results flagged for a closer look

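The group difference (AgRP-Gq;POMC-Gi minus control, log2) differed between OPCs and another glial type for 12 gene and type pairs, each by edgeR's interaction test with an adjusted p under 0.05. Values below are the OPC difference minus that of the other type, with SE.

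Against oligodendrocytes, *Hunk* had -1.34 (SE 0.18), *Sox6* -1.16 (SE 0.22) and *Adarb2* -0.76 (SE 0.15), in each case the OPC difference being the lower. *Sox6* and *Adarb2* read 1398, 1525, 1727 and 1462 CPM and 4102, 3535, 2797 and 3199 CPM in OPCs, in the order control 1, control 2, AgRP-Gq;POMC-Gi 1 and 2. In oligodendrocytes both were low, at 4.11, 3.43, 11.4 and 7.54 CPM and 98.8, 81.1, 134 and 107 CPM. The *Adarb2* interaction was -0.49 (edgeR adjusted p = 0.150) with AgRP-Gq;POMC-Gi replicate 1 left out, and did not pass with control replicate 1 or 2 left out either (0.1304 and 0.1065). *Sox6* did not pass with control replicate 2 or AgRP-Gq;POMC-Gi replicate 1 left out, nor *Scrg1* with control replicate 1 or AgRP-Gq;POMC-Gi replicate 1 left out. *Hunk*, *Sox6* and *Scrg1* were under the minimum for a test in oligodendrocytes and entered through their OPC level. A UMI of *Hunk* was found in 4.98% and of *Sox6* in 1.36% of oligodendrocyte nuclei, and at 2000 UMIs in 3.75% and 1.09%, beside 4.33% and 2.37% of neurons. These 2 interactions therefore rest on oligodendrocyte levels no higher than the share in neurons, no change in oligodendrocytes is read from them, and the part of RNA carried between droplets was not tested.

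*Sgk3* had 1.31 (SE 0.23), *Rhoj* 1.23 (SE 0.18), *Enah* 1.04 (SE 0.16), *Scrg1* 1.01 (SE 0.21) and *Pcdh11x* 0.92 (SE 0.14) against oligodendrocytes. *Sgk3*, *Enah* and *Pcdh11x* did not pass with control replicate 1 left out (edgeR adjusted p = 0.202, 0.1304 and 0.0773). For *Scrg1* the OPC levels were 216, 215, 168 and 173 CPM and the oligodendrocyte levels 28.6, 24.4, 9.27 and 11.9 CPM. A *Scrg1* UMI was found in 4.62% of oligodendrocyte nuclei, and with that gene under the minimum there and not called in OPCs (log2 difference -0.29, SE 0.15), no change is read in either type.

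Against astrocytes, *Hunk* had -1.87 (SE 0.25), *Ntng1* -1.98 (SE 0.40), *Fkbp5* 1.82 (SE 0.25) and *4930545L23Rik* 1.41 (SE 0.21). *Fkbp5* was lower in AgRP-Gq;POMC-Gi libraries in both types and more so in astrocytes. None of these 4 passed with AgRP-Gq;POMC-Gi replicate 2 left out, and *Ntng1* failed without TMM factors (edgeR adjusted p = 0.0928) and with control replicate 2 left out (0.0897) as well.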

How the results depend on the processing

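Against 4 genes called in OPCs, 14 were called without TMM factors (1 higher, 13 lower), 2 with DESeq2 (109 at an unadjusted p under 0.05), 36 with no filter beyond 1 UMI (14 higher, 22 lower; 19659 genes tested), 7 with the replicate block (*Egr1* and *Phlda1* higher, 5 lower), 7 in nuclei with under 2 myelin UMIs (*Egr1* and *Malat1* higher, 5 lower) and 3 with Holm adjustment; the cause of these changes was not tested. Leaving out a library gave 0 to 105 calls: 1 when control replicate 1 was dropped, 0 for control replicate 2 (262 at an unadjusted p under 0.05), 64 for AgRP-Gq;POMC-Gi replicate 1 and 105 for AgRP-Gq;POMC-Gi replicate 2; the lone library left is then assumed to vary like the other group. *Zbtb16*, *Mertk*, *Fkbp5* and *Cd101* had a difference below 0 under all 12 alternatives but did not always pass: *Cd101* lost the call under 5 (Holm adjusted p = 0.128 among them), *Fkbp5* under 4, *Mertk* under 2 and *Zbtb16* under 1. Same-numbered libraries deviated together with r = 0.0765 over 8425 genes, under the 0.1 set for pairing; both libraries numbered 2 held the choroid plexus nuclei and *Ttr*, and no label says what the numbers share. Against oligodendrocytes, where 8 interactions passed, 14 did without TMM factors, 16 with filterByExpr and 4 to 49 with a library left out (4 for control replicate 1, 21 and 49 for AgRP-Gq;POMC-Gi replicates 1 and 2). Against astrocytes, where 4 passed, 21 did with filterByExpr and 0 to 37 with a library left out (13 and 15 for control replicates 1 and 2, 37 and 0 for AgRP-Gq;POMC-Gi replicates 1 and 2). The difference in the share of nuclei with G2/M genes, -0.925 percentage points, was 0.0209 at 2000 UMIs, 0.438 with the S phase list and between -3.06 and 1.21 with a library left out, turning sign without control replicate 1. The OPC share of kept nuclei and of lineage nuclei kept its direction. With 2 libraries a group and 169 to 214 OPC nuclei each, no UMI of a gene in a library allows a level of up to 3.10 to 4.47 CPM.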

Other observations

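Clock genes were read in OPCs as a further list. Of 11 genes of the *Dbp* and *Per* arm, 9 were tested and none was called. Without overlap, 3 were lower and none higher (20.3% and 14.5% of all genes tested). The median log2 difference was -0.22, beside 0.01 over all genes tested. *Per2* read 55.8, 56.6, 33.1 and 28.6 CPM (control 1, control 2, AgRP-Gq;POMC-Gi 1 and 2; log2 difference -0.82, SE 0.28, edgeR adjusted p = 0.549), *Per3* 70.2, 76.0, 48.2 and 49.8 CPM and *Dbp* 16.5, 22.4, 9.64 and 7.47 CPM. *Arntl*, of the opposite arm, read 39.2, 17.9, 27.5 and 38.6 CPM, with overlapping groups. *Per1* stands on both the clock and the glucocorticoid list.

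Of 28 *Hox* genes, which set position along the body axis, none reached the 5% minimum in OPCs. The highest was *Hoxa3*, at 12.4, 11.9, 8.26 and 17.4 CPM, close to the 13.7 CPM of oligodendrocytes.

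Of the 22 S phase genes, 4 were tested, with a median log2 difference of 0.01 and none called, and the list summed to 211, 191, 204 and 197 CPM.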
